A study of Mus musculus with 30 samples.

Results

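A set of 10 genes that are used to mark early neural cells and their precursors was followed in mouse epiblast stem cells (EpiSCs) and in definitive endoderm made from them: Olig1, Olig2, Olig3, Nes, Tubb3, Pax3, Pax6, Sox1, Sox3 and Pou3f1. They are 10 of the 29555 genes in the deposited RNA count tables. The genes were listed by name, chosen by their RNA counts in these libraries: the difference of endoderm and of PWK from B6 EpiSCs. Their RNA levels in endoderm against EpiSCs and in PWK against B6 EpiSCs are therefore given as a description. No p-value is printed for them. Counts of called members stand beside the share over all genes and support nothing. RNA in B6129F1 EpiSCs, and chromatin accessibility in endoderm and PWK, were tested. Accessibility was not used in the choice. It compares the same cell states and strains, so peaks near the members are not independent of the choice. The RNA comparisons of B6129F1 and DBA use the B6 libraries that the choice used, so their member values are not free of it.

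EpiSCs are pluripotent cells that resemble the epiblast just before gastrulation. The lines came from C57BL/6 (B6), PWK/PhJ (PWK), DBA/2J (DBA) and B6.129 F1 (B6129F1) mice and were grown on feeder cells in N2B27 medium with Fgf2, ActivinA and the Wnt pathway inhibitor NVP-TNKS656. Definitive endoderm was made from B6 EpiSCs with CHIR99201 and ActivinA for 16 h and then ActivinA and LDN193189 for 24 h, is labelled 46 h, and was collected by magnetic sorting of CXCR4+ cells. RNA-seq of poly(A) RNA covered 5 B6 EpiSC, 4 B6 endoderm, 3 PWK, 3 B6129F1 and 1 DBA libraries, and ATAC-seq, which counts DNA fragments cut in open chromatin, covered 4 B6 EpiSC, 4 B6 endoderm, 2 PWK and 1 DBA libraries. No genotype, transgene or gene deletion beyond the strain is named in the labels. The titles of all libraries but the DBA ATAC one carry BioRep, for biological replicate. They do not say whether libraries of a group came from separate cultures or animals. The p-values therefore measure the spread between these libraries, which may be technical. The DBA RNA library carries BioRep698 in its title, as a PWK library does. In each of the PWK RNA, PWK ATAC and B6129F1 RNA groups, 1 library is called unnumbered, because its table column names the strain and could not be matched to one labelled sample. Levels are given as CPM, the count relative to the scaled library total within each table. The table with endoderm and the table of EpiSC strains were scaled separately, so the same B6 library has slightly different levels in them.

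Olig1, Olig2 and Olig3 are basic helix-loop-helix transcription factors; Olig2 is known for specifying motor neurons and, with Olig1, oligodendrocytes in the ventral neural tube, and Olig3 marks dorsal progenitors. Sox1 and Sox3 are SOXB1 factors of the neural plate, and Sox3 and the POU factor Pou3f1 (Oct6) are also made in the epiblast before neural fate is set. Pax6 and Pax3 are paired-box factors of the neural tube, Pax3 in dorsal cells, neural crest and somites. Nes encodes nestin, an intermediate filament protein of neural progenitors that other proliferating cells make too, and Tubb3 encodes a beta-tubulin of neurons.

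Library totals ranged from 22829536 to 66563933 RNA counts, and from 3751526 to 9571127 ATAC counts in peaks. The labels were checked against marker genes. All 9 definitive endoderm markers rose in the endoderm libraries (edgeR's quasi-likelihood test, p adjusted by Benjamini and Hochberg's method), and their summed level was 6136 to 12636 CPM against 161 to 393 CPM in B6 EpiSCs. The list includes Cxcr4, the marker the cells were sorted on, so the rise of this gene is no independent check. The pluripotency factor Pou5f1 fell by 6.47 on the log2 scale (SE 0.85). It is part of a list of 8 primed epiblast markers, of which 5 fell and 2 rose. The summed level of this list overlapped between groups, at 3186 to 4014 CPM in endoderm and 3360 to 4939 CPM in B6 EpiSCs. Endoderm library 2 kept 36.6 CPM of Pou5f1, against 2.42 to 6.37 CPM in the other endoderm libraries. In endoderm RNA library 51, genes on chromosome 8, which carries Tubb3 and Sox1, had a median deviation of 0.51 (log2) from the endoderm mean. In the endoderm ATAC library of that number, peaks on this chromosome had 0.48. The other endoderm libraries of these assays stood at -0.18 to -0.14. Markers of feeder fibroblasts summed to 75.0, 1349, 460, 1288 and 3014 CPM in B6 EpiSC libraries 1, 2, 4, 44 and 51, and to 65.3 to 246 CPM in endoderm. None of the 10 feeder markers was at 0 in an EpiSC library.

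Promoter sequences are shown for 4 members because the accessible peak at each start site was measured in both cell states, and the peaks at the first 2 lost accessibility in endoderm where no such change was called at the last 2. Each is the 250 bases before a start site, 5′ to 3′, from RefSeq's GRCm38.p6 annotation (the mm10 build), with CCAAT boxes (CCAAT, or ATTGG on the other strand) and the core of the SOX site (ACAAT, or ATTGT on the other strand) in capitals.
Olig2 (chr16:91225300-91225549, + strand): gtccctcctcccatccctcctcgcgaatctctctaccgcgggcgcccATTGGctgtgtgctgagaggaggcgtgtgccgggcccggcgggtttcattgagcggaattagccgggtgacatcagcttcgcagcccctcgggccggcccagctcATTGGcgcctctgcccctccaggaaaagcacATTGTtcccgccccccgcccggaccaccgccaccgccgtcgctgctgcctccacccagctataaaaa
Nes (chr3:87970843-87971092, + strand): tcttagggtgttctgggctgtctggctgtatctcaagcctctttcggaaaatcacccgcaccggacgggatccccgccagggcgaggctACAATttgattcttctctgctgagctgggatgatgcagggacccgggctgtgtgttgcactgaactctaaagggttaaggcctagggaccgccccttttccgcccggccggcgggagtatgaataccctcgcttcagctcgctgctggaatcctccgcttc
Tubb3 (chr8:123411303-123411552, + strand): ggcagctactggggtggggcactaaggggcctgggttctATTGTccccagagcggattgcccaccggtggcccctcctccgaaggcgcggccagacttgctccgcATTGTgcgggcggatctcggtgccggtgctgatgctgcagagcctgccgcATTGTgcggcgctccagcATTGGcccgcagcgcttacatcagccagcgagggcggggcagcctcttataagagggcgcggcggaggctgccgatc
Pax6 (chr2:105668646-105668895, + strand): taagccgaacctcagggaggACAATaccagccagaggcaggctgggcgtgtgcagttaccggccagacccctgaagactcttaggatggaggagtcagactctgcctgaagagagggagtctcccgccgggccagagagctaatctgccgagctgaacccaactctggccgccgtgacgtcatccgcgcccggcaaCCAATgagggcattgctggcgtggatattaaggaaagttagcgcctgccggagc

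The Olig2 window held 2 CCAAT boxes and 1 SOX core, was 66.8% G or C against a median of 52.4% over 32841 such windows, and had 183 of its 250 bases inside the start-site peak. Nes had no CCAAT box and 1 SOX core, Tubb3 had 1 CCAAT box and 3 SOX cores, and the first Pax6 start had 1 of each. Among all windows, 33.9% held a CCAAT box and 27.7% a SOX core on either strand, so both are common letters. The motifs did not overlap each other in these windows. A match is a run of letters and not a bound site. RefSeq promoter entries were matched for 6 of the 10 genes; those of Olig3 and Sox1 are not printed.

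Most of these genes were lower in endoderm than in B6 EpiSCs, and Pax3 was higher. Of the 10 genes, 8 passed the filter on low counts, 7 of these had an adjusted p under 0.05 (6 lower, 1 higher), and 5 had no overlap between the groups' libraries. Over all 14085 genes tested, 62% were called (31.5% higher and 30.6% lower) and 55.5% had no overlap. The median log2 difference was -3.59 for the 8 members and -0.01 for all genes. Since this contrast was used to choose the genes, nothing is read from these counts. In bulk RNA, fewer cells making a transcript and less transcript per cell cannot be told apart.

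**Figure D1:**
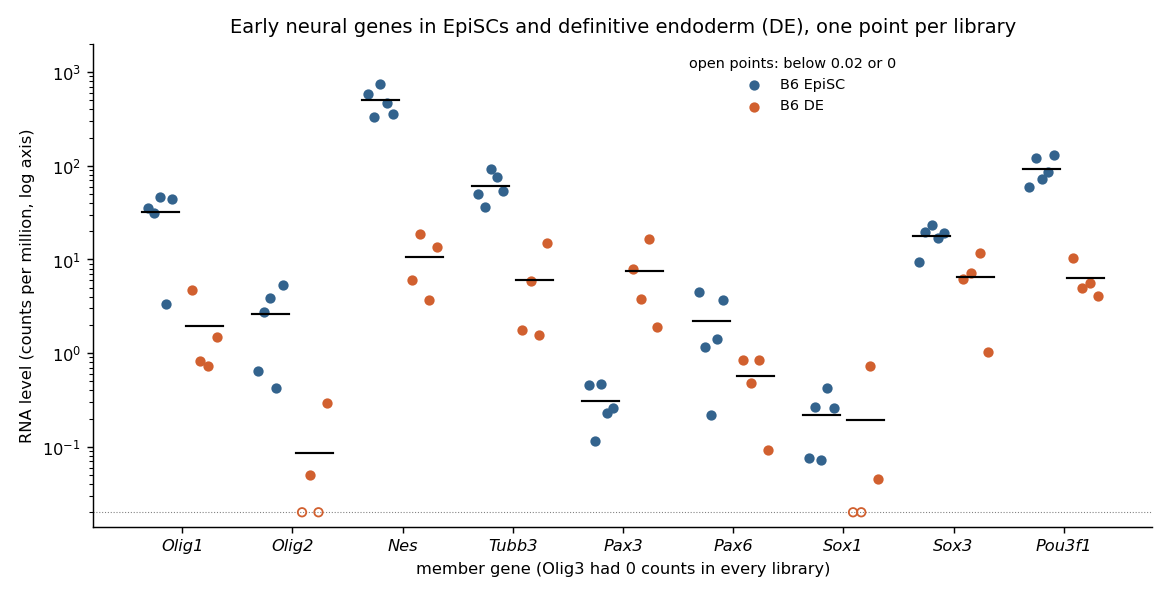
RNA level of each of the 10 genes by library in B6 EpiSCs (5 libraries) and B6 definitive endoderm (4 libraries), in CPM on a log axis. Each point is 1 library, bars are group means, and open points on the dotted line are at 0 or below 0.02 CPM; the Pax3 points of endoderm (1.90 to 16.4 CPM) lie above those of EpiSCs (0.115 to 0.473 CPM).

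Olig1 was at 35.1, 31.3, 46.5, 3.32 and 44.5 CPM in B6 EpiSC libraries 1, 2, 4, 44 and 51, and at 4.72, 0.834, 0.731 and 1.48 CPM in endoderm libraries 2, 4, 44 and 51. EpiSC library 44 stood low, inside the range of endoderm, and endoderm library 2, the one with the most Pou5f1, stood highest in its group. The fitted log2 difference was -4.05 (SE 0.83), and -4.94 without endoderm library 2. The part of the Pou5f1 RNA left in library 2 in its Olig1 level was not tested.

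Olig2 was at 0.647, 2.77, 3.86, 0.423 and 5.34 CPM in the same EpiSC libraries. In endoderm it had 0, 3, 0 and 19 counts, or 0, 0.05, 0 and 0.291 CPM, so the groups did not overlap. The fitted difference was -4.65 (SE 1.19), and -6.51 without endoderm library 51, which held most of the endoderm counts. Among EpiSC libraries, 44 was the lowest for both Olig1 and Olig2. Olig3 had 0 counts in every RNA library, which allows up to 0.0451 to 0.131 CPM at 3 counts, and no peak near it in the endoderm ATAC table.

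Pou3f1 stood at 58.8, 120.4, 72.7, 85.4 and 129 CPM in EpiSC libraries 1, 2, 4, 44 and 51 and at 10.4, 4.99, 5.66 and 4.08 CPM in endoderm libraries 2, 4, 44 and 51. Every endoderm library was below every EpiSC library, with a fitted difference of -3.88 (SE 0.37). Sox3 stood at 9.47, 19.7, 23.1, 17.1 and 19.2 CPM in EpiSCs and at 6.19, 7.09, 11.8 and 1.04 CPM in endoderm, a difference of -1.41 (SE 0.55). EpiSC library 1 lay inside the endoderm range for Sox3. Sox1 did not pass the filter: it reached at most 0.423 CPM in EpiSCs, was at 0 in endoderm libraries 2 and 4, and was at 0.731 and 0.0459 CPM in endoderm libraries 44 and 51.

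Nes stood at 591, 331, 754, 474 and 361 CPM in EpiSC libraries 1, 2, 4, 44 and 51 and at 6.09, 18.5, 3.69 and 13.8 CPM in endoderm libraries 2, 4, 44 and 51. This was the widest gap among the members that were lower, at -5.55 (SE 0.53). The feeder marker sum moved with the groups too, at 75.0 to 3014 CPM in EpiSCs and 65.3 to 246 CPM in endoderm. Nes was 591 CPM in EpiSC library 1, with the lowest sum, and 361 CPM in library 51, with the highest, and the part of feeder cells in the difference was not tested. Tubb3 stood at 49.8, 36.8, 91.9, 75.7 and 53.5 CPM in EpiSCs and at 1.77, 5.94, 1.58 and 14.97 CPM in endoderm, a difference of -3.31 (SE 0.65). The highest endoderm level was in library 51, where chromosome 8 as a whole stood high; without that library the difference was -4.25.

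Pax3 was the member that was higher in endoderm, at 7.91, 3.77, 16.4 and 1.90 CPM in libraries 2, 4, 44 and 51. In EpiSCs it stood at 0.457, 0.115, 0.473, 0.228 and 0.260 CPM. The groups did not overlap, the difference was 4.62 (SE 0.70; 3.89 without endoderm library 44), and the 4 endoderm libraries differed widely among themselves. Pax6 stood at 4.49, 1.15, 0.218, 1.43 and 3.71 CPM in EpiSCs and at 0.835, 0.484, 0.847 and 0.0918 CPM in endoderm, a difference of -1.96 (SE 0.89), with overlapping groups. Its reads may include those of the overlapping genes Pax6os1 and Elp4, and those of Olig2 and Sox1 the overlapping Gm52261 and Sox1ot, where strand was not used in counting.

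Other genes of the same pathways moved in both directions in endoderm, and neuronal genes mostly fell. Of 22 tested genes of an early neural plate and progenitor list, 6 rose and 9 fell (adjusted p under 0.05, edgeR). Of all 14085 genes tested, 62% were called, 31.5% higher and 30.6% lower, and the counts of each list stand against that share. The SOXB1 factor Sox2 fell by 6.21 (SE 0.87, adjusted p = 0.000146), the zinc finger factor Zic2 fell by 3.83 (SE 0.24, adjusted p = 1.13e-06) and the RNA-binding protein gene Msi1 fell by 3.69 (SE 0.19, adjusted p = 4.4e-07) on the log2 scale. In the same list the homeobox genes Rax and Irx3 rose by 5.64 (SE 1.04, adjusted p = 0.000888) and 4.34 (SE 0.63, adjusted p = 0.000181), and the SOXB2 factor Sox21 rose by 4.79 (SE 0.57, adjusted p = 5.01e-05). Of 13 proneural and neuronal genes, 1 rose and 9 fell. The Notch ligand Dll1 rose by 5.62 (SE 0.27, adjusted p = 3.89e-07), and the neuronal cytoskeleton genes Map2 and Nefm fell by 4.07 (SE 0.40) and 5.07 (SE 0.67). The median log2 difference was -0.56 for the first list and -3.58 for the second, against -0.01 for all genes. The summed level of the first list was nonetheless higher in endoderm, at 1125 to 1471 CPM against 971 to 1036 CPM in B6 EpiSCs. That of the second list was lower, at 147 to 198 CPM against 270 to 484 CPM.

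Genes of the oligodendrocyte lineage, which Olig1 and Olig2 are known to control in the nervous system, moved both ways. The counts in this paragraph stand against 62% called of all genes (31.5% higher and 30.6% lower). Of 6 tested, Pdgfra, Mbp and Cnp rose in endoderm, by 2.74 (SE 0.39), 3.24 (SE 0.45) and 1.89 (SE 0.20), and Cspg4 and Myrf fell, by 3.41 (SE 1.14) and 4.27 (SE 0.45). Pdgfra, a receptor for platelet-derived growth factor, is also made in mesoderm and endoderm. Of 7 neural crest and dorsal genes, 1 rose and 4 fell, among them Foxd3, from 26.9 CPM in EpiSCs to 0.0983 CPM in endoderm, and Sox9, by 1.70 (SE 0.44). Among 13 paralogs of the members, 3 rose and 7 fell; Ina and Synm, intermediate filament genes like Nes, fell by 2.05 (SE 0.40) and 1.85 (SE 0.48).

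Olig1 and Olig2 were nearly absent from PWK and DBA EpiSCs and present in B6129F1 EpiSCs. Of the 7 members that passed the filter in the table of strains, 3 were called in PWK against B6 (Olig1, Olig2 and Nes, all lower), and these 3 also had no overlap. Over all 14822 genes tested, 26.5% were called (12.0% higher and 14.5% lower) and 32.2% had no overlap. This contrast was also used in choosing the genes, so nothing is read from the counts. With library totals in place of trimmed-mean scaling, the share of called genes that were higher went from 45.4% to 56.6%.

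**Figure D2:**
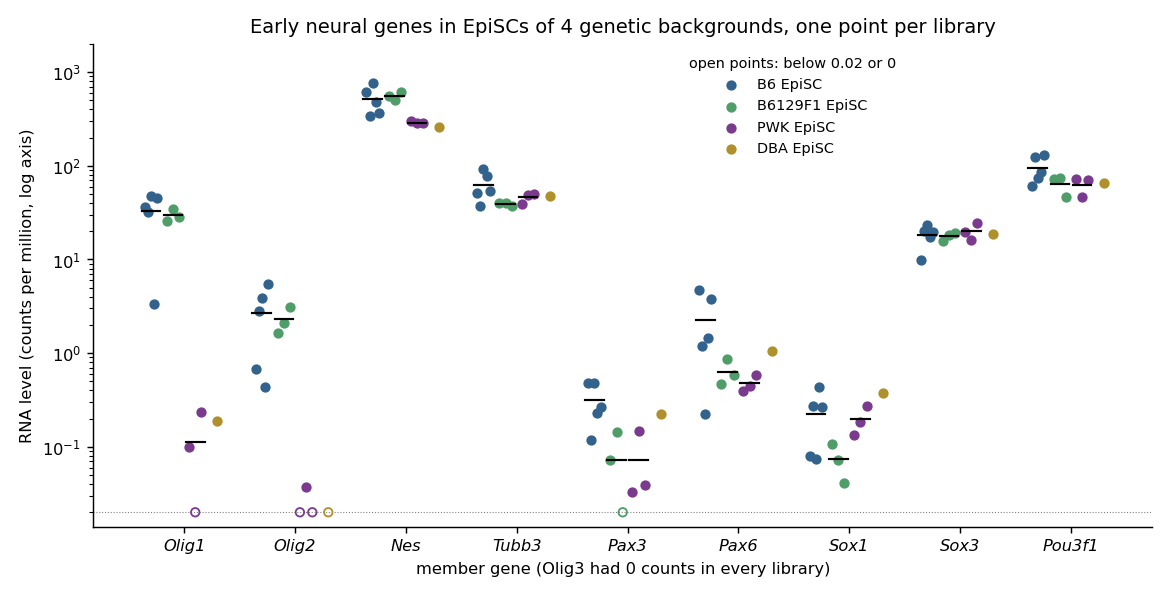
RNA level of each of the 10 genes by library in EpiSCs of B6 (5 libraries), B6129F1 (3), PWK (3) and DBA (1), in CPM on a log axis. Points are libraries, bars group means, and open points are at 0 or below 0.02 CPM. Olig1 lies between 25.8 and 34.5 CPM in B6129F1 and at or below 0.234 CPM in PWK and DBA.

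Olig1 had 3, 0 and 6 counts in PWK libraries BioRep695, BioRep698 and the unnumbered one, or 0.0996, 0 and 0.234 CPM, and 5 counts, or 0.186 CPM, in the DBA library. B6 libraries 1, 2, 4, 44 and 51 held 36.6, 32.0, 47.1, 3.38 and 45.1 CPM. All PWK and DBA libraries thus lay below the lowest B6 library, 44. Summed over libraries, the PWK level was 295-fold lower than B6 (95% interval 156 to 647) and the DBA level 172-fold lower (73.7 to 530); these intervals cover counting error and not the spread between libraries. The fitted difference for PWK was -8.17 (SE 1.08), and -9.18 without the unnumbered PWK library.

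Olig2 had 1 count in the 3 PWK libraries together and 0 in the DBA library, where B6 libraries 1, 2, 4, 44 and 51 held 0.675, 2.83, 3.91, 0.431 and 5.42 CPM. The PWK level was 217-fold lower (95% counting interval 38.7 to 8594). For DBA the level was at least 23.4-fold lower, taking 3 counts in that library as the floor. Olig2 is thus low in PWK and DBA with Olig1, and the order of strains for both genes was B6 and B6129F1 above DBA and PWK. DBA and PWK were not distinguished, since the DBA level of Olig1 lay inside the range of the PWK libraries.

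In B6129F1 libraries 4, 9 and the unnumbered one, Olig1 stood at 25.8, 34.5 and 28.2 CPM and Olig2 at 1.65, 2.12 and 3.12 CPM. Both lay inside the B6 range, and neither difference passed edgeR's test (Olig1 -0.19, SE 0.62, adjusted p = 0.892; Olig2 -0.26, SE 0.73, adjusted p = 0.875). Of the 7 members tested, 0 were called, 2 had an unadjusted p under 0.05 (Tubb3 and Pax6), and 1 was called by DESeq2 (Tubb3). Over all genes, 2.84% were called by edgeR, 1.34% higher and 1.5% lower. The B6 libraries of this comparison were also used in choosing the genes. Tubb3 stood at 40.2, 40.6 and 37.2 CPM against 37.6 to 93.2 CPM in B6 (-0.72, SE 0.25, adjusted p = 0.115). Pax6 stood at 0.465, 0.861 and 0.582 CPM against 0.221 to 4.68 CPM (-1.86, SE 0.78, adjusted p = 0.174). The differences were 0.08 (SE 0.23) for Nes, -0.06 (SE 0.24) for Sox3 and -0.61 (SE 0.28) for Pou3f1, with adjusted p = 0.874, 0.914 and 0.215.

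Nes stood at 300.4, 285 and 283 CPM in PWK libraries BioRep695, BioRep698 and the unnumbered one and at 260.4 CPM in DBA. All 4 were below the lowest of the B6 libraries, which ranged from 338 to 765 CPM, and B6129F1 ranged from 503 to 613 CPM. The difference in PWK was -0.81 (SE 0.23). The feeder marker sum was 2522 to 3564 CPM in PWK, 1772 CPM in DBA, 165 to 267 CPM in B6129F1 and 78.2 to 3056 CPM in B6. The part of feeder cells in the strain differences was not tested.

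The groups overlapped for the other 4 members that passed the filter. Sox3 stood at 19.6, 16.2 and 24.7 CPM in PWK and 18.9 CPM in DBA, against 9.88 to 23.4 CPM in B6 (PWK difference 0.17, SE 0.24). Pou3f1 stood at 72.5, 46.3 and 69.8 CPM in PWK and 64.9 CPM in DBA, against 61.3 to 131 CPM (-0.59, SE 0.28). Tubb3 stood at 39.5, 48.6 and 50.2 CPM in PWK and 48.1 CPM in DBA (-0.44, SE 0.24). Pax6 was at 0.399, 0.441 and 0.585 CPM in PWK and 1.04 CPM in DBA (-2.23, SE 0.80).  Pax3 and Sox1 stayed under 0.5 CPM in every EpiSC library, and Olig3 had 0 counts.

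With 1 DBA library no test was run, and the B6 libraries it is set against were used in choosing the genes. Of the 7 members with a mean of at least 1 CPM, 3 differed from the B6 mean by over 2-fold in DBA (Olig1, Olig2 and Pax6, all lower), against 7.93% of 12772 genes (2.95% higher and 4.98% lower). Outside the range of the B6 libraries were Olig1, Olig2 and Nes, and over 2-fold and outside it were Olig1 and Olig2, against 6.34% of genes.

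The other neural genes that were called in PWK moved in both directions. The counts of each list stand against 26.5% called of all genes (12.0% higher and 14.5% lower). Of 6 tested genes of the oligodendrocyte lineage, 0 were called. Of 23 tested early neural genes, 1 rose (Ncam1 by 0.72, SE 0.24, adjusted p = 0.0493) and 2 fell, Six3 by 4.21 (SE 1.39, adjusted p = 0.0470) and Msi1 by 0.35 (SE 0.10, adjusted p = 0.0245). Of 13 proneural and neuronal genes, 3 rose and 1 fell: the neurofilament gene Nefm rose by 1.65 (SE 0.32) and Stmn2 fell by 1.17 (SE 0.13). The homeobox gene Msx1 rose from 0.812 to 7.60 CPM, the 1 called gene of 8 neural crest genes. Among 14 paralogs of the members 3 rose and 3 fell, including 5 beta-tubulin genes: Tubb2a and Tubb2b rose by 1.95 (SE 0.52) and 0.47 (SE 0.13), and Tubb4a, Tubb4b and Tubb5 fell by 1.60 (SE 0.20), 0.42 (SE 0.07) and 0.21 (SE 0.07). Reads of such near-identical genes can be split between copies, and how reads of PWK and DBA mapped to a C57BL/6 genome was not tested.

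Over the 12 EpiSC libraries, which share strains and culture, the log2 CPM of Olig1 and Olig2 had a Pearson r of 0.947. The other correlations here are also of log2 CPM. Among 11686 genes, the pattern closest to Olig1 was that of Rtraf (r = 0.967), followed by Srp9, Soat1, Mrpl48 and Clns1a. The gene whose pattern was closest to Olig2 was Olig1, then Rpl15, Gm10359, Haus4 and Rtraf. The most opposite to Olig1 was Fras1 (r = -0.969). These values describe the libraries and carry no test.

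Near the members, more peaks fell than rose in endoderm. The members were chosen by their RNA difference between these cell states, so the direction of nearby peaks is not independent of that choice. A peak was counted as near a gene when it overlapped the gene or lay within 10 kb of either end, and 54 peaks were near the 10 genes. Of 50 tested, 33 were called by edgeR, 25 lower and 8 higher, and 17 did not pass. Among all 113870 peaks tested, 57.6% were called, 32.6% higher and 25% lower. The median log2 difference near the members was -0.59 against -0.01 for all peaks. Peaks near 1 gene are not independent of each other. With library totals in place of trimmed-mean scaling, the median of all peaks moved by -0.22, and peak values are therefore relative to the scaling used.

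**Figure D3:**
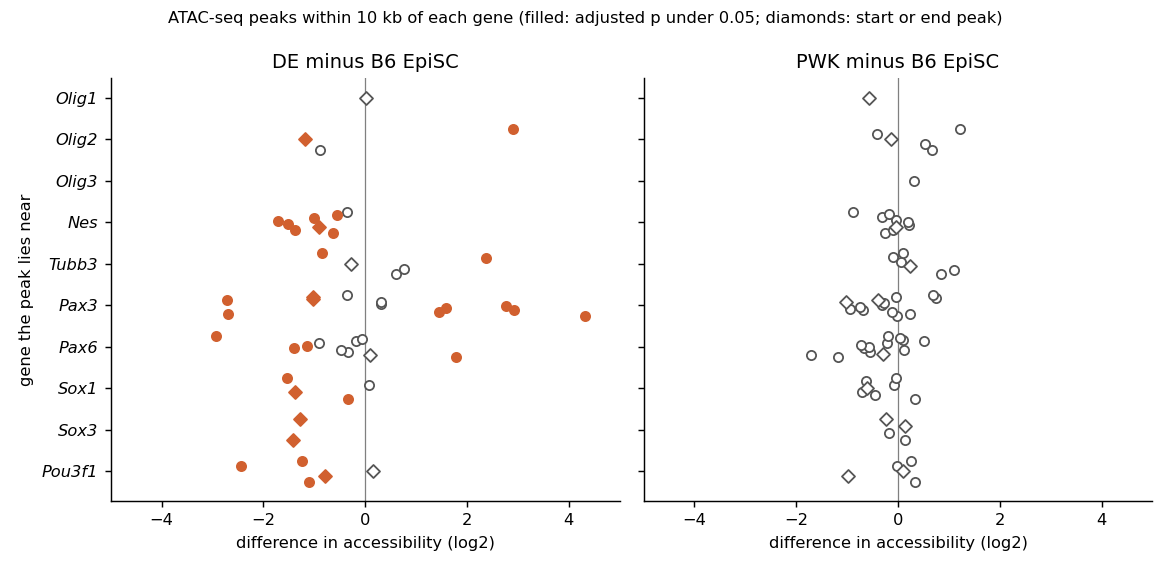
Log2 difference in accessibility of each tested peak near the members, for endoderm (DE) minus B6 EpiSC at left and PWK minus B6 EpiSC at right, 1 row per gene; filled symbols passed the test (adjusted p under 0.05) and diamonds are start or end peaks. In endoderm all 8 peaks of Nes lie below 0 and those of Pax3 lie on both sides, and no symbol is filled at right.

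At Olig2 (chr16:91225550-91228677), the peak at the start site (chr16:91225279-91225482, upstream of the first exon, in the sequence printed above) stood at 9.67, 5.34, 8.98 and 2.91 CPM in endoderm libraries 2, 4, 44 and 51. It stood at 16.5, 12.2, 22.2 and 13.8 CPM in EpiSC libraries 1, 4, 44 and 51. Every endoderm library was below every EpiSC library, and the peak fell by 1.18 on the log2 scale (SE 0.30, adjusted p = 0.00229, edgeR). A weaker intergenic peak downstream (chr16:91237490-91237594) rose by 2.90 (SE 0.59, adjusted p = 0.000244; 3.62 without EpiSC library 4), from a mean of 0.350 to 3.18 CPM.

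At Olig1 (chr16:91269769-91271939) no change in accessibility passed the test. The peak at chr16:91269565-91269772, which overlaps the lower-coordinate end of the gene, stood at 24.9, 16.8, 18.3 and 19.8 CPM in endoderm and 21.1, 21.3, 14.2 and 22.4 CPM in EpiSCs. The groups overlapped, with a difference of 0.01 (SE 0.19, adjusted p = 0.957). ATAC library 44 was the lowest EpiSC library here, and the RNA library of the same number was low in Olig1. At the Olig2 start-site peak ATAC library 44 was the highest EpiSC library (22.2 CPM). The RNA library of that number was the lowest EpiSC library in Olig2. The labels do not say that libraries with the same number share an origin.

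**Figure D4:**
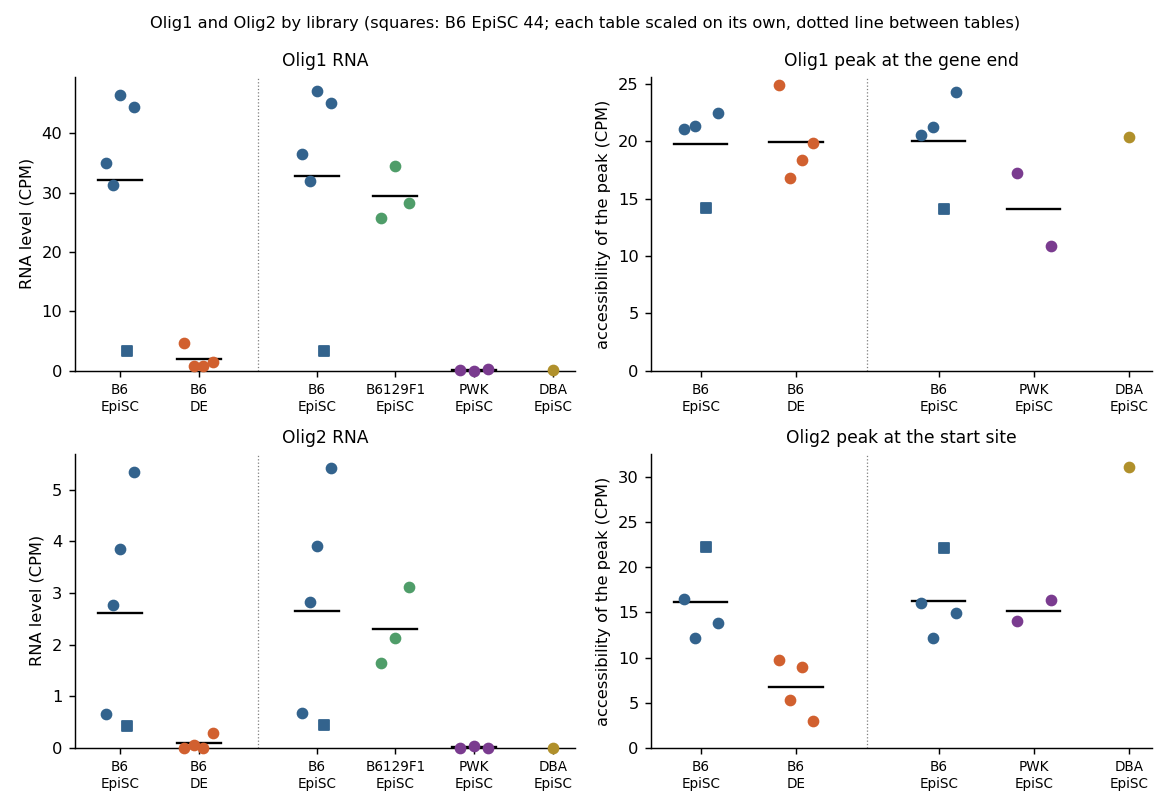
Olig1 and Olig2 RNA level (left) and accessibility of the peak at the lower-coordinate end of Olig1 or the start site of Olig2 (right), in CPM. Points are libraries by group, with group means as bars, squares for B6 EpiSC 44 and a dotted line between the separately scaled tables. The Olig1 peak lies between 10.9 and 24.9 CPM in all 11 ATAC libraries shown.

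Most peaks within 10 kb of Nes and of Pou3f1 lost accessibility. Of 8 peaks near Nes (chr3:87971093-87980451), 7 fell, among them the 3 that overlap the gene and 1 that overlaps Gm32518. The peak at the Nes start site, which includes part of the printed sequence, fell by 0.91 (SE 0.22, adjusted p = 0.00134, edgeR). An intragenic one (chr3:87974247-87974592) fell from a mean of 33.7 to 12.0 CPM (-1.52, SE 0.20, adjusted p = 1.63e-06). Of 5 peaks near Pou3f1 (chr4:124657646-124660655), 4 fell, all outside the gene. The one at chr4:124668096-124668380 fell by 1.25 (SE 0.23, adjusted p = 9.36e-05, edgeR) and overlaps Gm38545. Those at chr4:124652910-124653082 and chr4:124656912-124657217 overlap Gm2164. The peak across one end of Pou3f1, the only one that overlaps the gene, did not pass (0.16, adjusted p = 0.635). Of 4 peaks near Sox1 (chr8:12395519-12399555), 3 fell, and the start-site peak fell by 1.37 (SE 0.33, adjusted p = 0.00116). Both peaks near Sox3 (chrX:60891366-60893430) fell, by 1.41 (SE 0.39, adjusted p = 0.00387) and 1.28 (SE 0.52, adjusted p = 0.0413); the call of the latter was lost when single libraries were left out.

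At Tubb3 (chr8:123411553-123422015) the start-site peak did not pass, with 10.5 to 20.4 CPM in endoderm and 16.6 to 20.4 CPM in EpiSCs (-0.29, adjusted p = 0.250). A peak inside the gene (chr8:123416579-123416742) rose by 2.38 (SE 0.49, adjusted p = 0.000276), with 15.4 CPM in endoderm library 51 and 4.75 to 5.72 CPM in the other endoderm libraries; without library 51 the rise was 1.84. A peak beyond the gene's end (chr8:123422578-123422728), named after its values were seen, fell by 0.85 (SE 0.25, adjusted p = 0.00574). The other 2 peaks tested near Tubb3 did not pass. Tubb3 RNA was also highest in the endoderm RNA library numbered 51, and chromosome 8 as a whole was high in the RNA and ATAC libraries of that number.

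Pax3 had peaks that moved both ways inside the gene. Of 12 tested near it (chr1:78101267-78197136), 5 rose and 4 fell. The largest rise was at chr1:78106664-78106939, from 0.279 to 1.52 CPM in EpiSC libraries to 19.5 to 21.4 CPM in endoderm libraries (4.31, SE 0.32, adjusted p = 1.67e-09). The 5 risen and the 4 fallen peaks all overlap the gene, as do 13 of the 14 peaks near it. Both peaks at the higher-coordinate end of the gene fell by 1.02 (adjusted p = 0.00757 and 0.0250). Of 10 tested peaks near Pax6 (chr2:105668896-105698410), 1 rose and 3 fell. The one that rose lies upstream (chr2:105666803-105667075), from a mean of 5.99 to 20.3 CPM (1.79, SE 0.22, adjusted p = 1.04e-06), and overlaps Pax6os1. An intragenic peak at chr2:105691277-105691492, named after its values were seen, fell by 2.94 (SE 0.45, adjusted p = 1.29e-05), and the start-site peak did not pass (0.09, adjusted p = 0.810).

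No peak near the members was called between PWK and B6 EpiSCs. Of 64 peaks tested near the members, 0 were called in PWK by edgeR, against 5.11% of 137667 peaks (1.42% higher and 3.68% lower), 15 had no overlap, against 27.1% of all peaks, and 8 had an unadjusted p under 0.05. The smallest adjusted p was 0.111. DESeq2 also called 0. The Olig2 start-site peak stood at 14.0 and 16.4 CPM in PWK libraries and 31.1 CPM in DBA, against 16.0, 12.2, 22.1 and 14.9 CPM in B6 libraries 1, 4, 44 and 51 (PWK difference -0.14, SE 0.26, adjusted p = 0.850). The Olig1 peak stood at 17.3 and 10.9 CPM in PWK and 20.4 CPM in DBA, against 20.5, 21.3, 14.1 and 24.3 CPM in B6 (-0.57, SE 0.27, adjusted p = 0.304). A difference was thus not shown with 2 PWK libraries, and these p-values do not show that the strains are alike. Of 63 DBA peaks with a mean of at least 1 CPM, 6 differed from B6 by over 2-fold, against 22.4% of 136312 peaks (5.71% higher and 16.7% lower). All 6 also lay outside the B6 range, against 19.9% of peaks.

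Within 50 kb of Olig1 and Olig2, 2 of 18 tested peaks fell in PWK. Over all peaks tested 5.11% were called in PWK, 1.42% higher and 3.68% lower. The 2 fallen peaks are named here after their values were seen and lie farther than 10 kb from either gene. The peak at chr16:91314147-91314477 fell from a mean of 22.3 to 8.43 CPM in PWK (-1.45, SE 0.24, adjusted p = 0.00264) and stood at 20.2 CPM in DBA, where Olig1 and Olig2 RNA were also near 0. In endoderm it fell by 1.13 (SE 0.21, adjusted p = 0.000116); both comparisons share the B6 libraries. The other, chr16:91211923-91212144, fell from 2.36 to 0.175 CPM (-3.50, SE 0.96, adjusted p = 0.0492) and stood at 3.85 CPM in DBA. In endoderm 7 of 10 tested peaks of this region were called, 6 lower and 1 higher, against 57.6% of all peaks (25% lower and 32.6% higher). Among 18 tested genes within 500 kb of Olig1 and Olig2, 3 were called in PWK, Mis18a and Tmem50b higher and Donson lower (named after their values were seen), with log2 differences of -1.01 to 0.64 over the 18. In endoderm 13 were called (8 higher, 5 lower). Over all genes 26.5% were called in PWK and 62% in endoderm.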

How the data were processed

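RNA-seq and ATAC-seq tables hold raw counts per gene or per peak, made by the authors against mm10; the submitters' processing notes name Salmon, featureCounts and DESeq2 for RNA and fastp, Bowtie2, MACS2, featureCounts and DESeq2 for ATAC, without roles. The deposited counts were tested with edgeR 4.0.16 (R 4.3.3; limma 3.58.1) after filterByExpr and trimmed-mean scaling, with robust quasi-likelihood tests and Benjamini-Hochberg adjustment over all genes or peaks; a call is an adjusted p under 0.05. RNA comparisons between strains share 1 fit of B6, PWK and B6129F1, and DBA, with 1 library per assay, was compared without a test. The procedure was tested on simulated data. The members, lists and tests were chosen with earlier results of these data known. Named list genes are among the 3 called genes per list that changed most (log2) in each direction, at a mean log2 CPM of at least 1. Named peaks are the peak nearest a start site, within 1 kb, and the nearby peak with the smallest p, except where stated. For Olig1, Pax3, Sox3 and Pou3f1, which had no promoter entry, peaks within 1 kb of either gene end were taken in place of a start-site peak. Alternatives were other scalings, DESeq2 1.42.0, other filters, the replicate number as a block, each library left out, and windows of 2 and 50 kb. The 3 PWK endoderm RNA libraries and 17 columns of the EpiSC peak table were not analysed here.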

Additional observations from a re-analysis of the deposited data

Results flagged for a closer look

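Within groups of 4 to 10 libraries, 6 of 73 sets of values had a library whose gap to its nearest neighbour exceeded Dixon's 95% limit; chance gives about 1 in 20. Olig1 RNA in B6 EpiSC library 44 was 3.32 CPM, against 31.3 to 46.5 CPM in the other B6 EpiSC libraries. The Olig1 peak in the ATAC library of the same number was 14.2 CPM, against 21.1 to 22.4 CPM. Also low in that ATAC library was the Pax6 start-site peak (3.40 CPM against 8.59 to 10.2 CPM). The Sox3 peak at the gene's higher-coordinate end was low there too (5.83 CPM against 7.98 to 8.40 CPM). In endoderm, the Tubb3 intragenic peak was 15.4 CPM in library 51, against 4.75 to 5.72 CPM, and the second Sox3 peak was 0 CPM in library 2, against 1.75 to 2.44 CPM.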

How the results depend on the processing

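No result changed sign under an alternative where it had been called. The count of members called in RNA of endoderm against B6 EpiSCs ranged from 6 to 7 with a library left out, in PWK from 2 to 4 and in B6129F1 from 0 to 1. Near the members, 31 to 34 peaks were called in endoderm and 0 to 1 in PWK. With at least 10 counts required in every library, which leaves fewer features, PWK had 1 RNA call of 4 tested (3 before) and endoderm 14 called peaks of 28 tested (33 before). Taking peaks within 50 kb, 72 of 116 tested were called in endoderm and 4 of 143 in PWK (0 before). DESeq2 called 1 member in B6129F1, Tubb3 (-0.71), which edgeR also called without B6 library 2 (-0.85). The B6129F1 background of 421 called genes is unstable: it was 0 without the unnumbered B6129F1 library or with the 2 groups fitted alone, 2 without library 4, 1 without the unnumbered PWK library, and 2007 with DESeq2; the cause was not tested.

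Single calls that were lost or gained were few. Sox3 RNA in endoderm lost its call without endoderm library 2 or 4 or EpiSC library 2, 4, 44 or 51, Nes RNA in PWK without B6 library 1, without any PWK library or with the 2 groups fitted alone, and Pax6 gained calls in endoderm and PWK with DESeq2 and without B6 library 4 (-2.26 and -2.53). The Pax3 peak at chr1:78197120-78197270 lost its call without endoderm library 4 or 51, and the Sox3 peak at chrX:60893991-60894079 without endoderm library 51 or EpiSC library 1. The Tubb3 start-site peak was called with library totals as scaling (-0.49). A Pax3 peak at chr1:78181918-78182231 was called in PWK without BioRep698 (-1.17). With the replicate number as a block, 7 members were called in RNA and 27 peaks in ATAC, against 7 and 29 in the same libraries without the block; both lost peaks named above were also lost in those libraries without it. Deviations of same-numbered libraries correlated at 0.066 to 0.187 in RNA, where each endoderm library correlated best with its own number, a hint from the data and not from the design, and at -0.013 to 0.047 in ATAC. Since the labels give no shared origin and 1 of the 4 RNA pairs and all 3 ATAC pairs were under 0.1, the numbers were not used as pairs. No paired analysis was possible for PWK, DBA and B6129F1 because these groups share fewer than 2 numbers with B6. The depth of 3751526 to 9571127 ATAC counts limits peaks of a few CPM.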
